A study of Canis lupus familiaris with 9 samples.

Results

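Autophagy is the route by which a cell wraps part of its cytoplasm in a membrane and delivers it to lysosomes for breakdown. A kinase complex starts the process, a lipid kinase complex marks the membrane, a conjugation system attaches small ATG8-type proteins to it, and cargo receptors link these proteins to what is to be removed. Mitophagy is the same route applied to mitochondria. In skeletal muscle it is known for the turnover of proteins and mitochondria during fasting and disuse. The genes described here are a list of 43 genes of this machinery, named by role and not chosen by a threshold on the measured values.

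Muscle RNA came from 9 intact female beagles, all 4 years old, each measured on 1 Affymetrix canine array. The 5 ad libitum dogs (animals 2, 5, 6, 7 and 8) ate without restriction for 24 weeks, and the 4 control dogs (animals 1, 3, 4 and 9) were fed to hold their starting body weight. All dogs ate the same commercial food, and all muscle was taken after an overnight fast, so the comparison is of the fasted state in both groups. Values are GCRMA values, taken as log2, so a difference of 1 is a doubling. Each gene was read from the probe set with the highest mean among those that carry its symbol alone. Such a probe set was found for 42 of the 43 genes, out of 15115 genes with a probe set of 1 symbol. PINK1, the kinase that marks damaged mitochondria, was not analysed here because no probe set carried its symbol alone. Of the 42 genes, 38 were above log2 4 on 4 or more arrays, the filter used, and were tested.

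The tissue label was checked against skeletal muscle markers, of which 13 of 13 measured genes passed the filter. Their mean log2 value per dog was 15.1 to 15.4 in ad libitum dogs and 15.2 to 15.4 in control dogs. Fibroblast markers were higher in ad libitum muscle for 13 of 13 tested genes, with dog means of 8.36 to 11.9 in ad libitum and 8.16 to 9.48 in control dogs. Adipocyte markers were higher for 11 of 13, with dog means of 8.82 to 10.7 against 8.02 to 9.80. Macrophage markers were higher for 8 of 8 tested genes, with dog means of 5.00 to 8.01 against 4.90 to 5.66. The tested gene CD163 was above log2 4 on 6 arrays, with control values of 3.40 to 4.06, so the filter may have favoured its direction. CD68, CSF1R, AIF1, TYROBP, FCER1G, ADGRE1 and ITGAM did not pass the filter. Of these, ADGRE1 had a lower mean in ad libitum dogs (log2 difference -0.069) and the others had higher means. Endothelial markers were higher for 4 and lower for 6 of 10, with dog means of 7.78 to 8.29 in ad libitum and 7.98 to 8.27 in control dogs. In whole muscle, fewer cells of a type and less RNA per cell cannot be told apart. The part of these cells in the differences below was not tested. For some genes a value with the adipocyte marker mean as a covariate is given. That mean itself averaged 9.98 in ad libitum and 8.92 in control dogs, and it includes LEP (log2 difference 2.41) and PCK1 (3.81). A fit with it therefore cannot separate fat content from feeding. No fit was made with the fibroblast or macrophage markers.

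Most of the autophagy machinery had nearly the same mean in ad libitum and control muscle. NRBF2 and OPTN were the 2 genes with an unadjusted limma p under 0.05, both with lower means in ad libitum dogs. That number is no larger a share than over all probe sets, and neither gene passed the adjusted level. Of the 38 tested genes 20 had a higher and 18 a lower mean in ad libitum dogs, with a median log2 difference of 0.0060. Over all 18394 tested probe sets the median was -0.0082, and 8900 were higher and 9494 lower. In limma with Benjamini-Hochberg adjustment over these probe sets, an adjusted p under 0.05 was reached by 0 of the 38 genes and by 0% of all probe sets. The lowest adjusted p among the 38 was 0.796. Without adjustment, 2 of the 38 genes (5.26%) had p under 0.05, where 5.91% of all probe sets did, and 6.23% of genes with 1 probe set each. At that level 2 of the 38 were lower, against 2.21% of all probe sets, and 0 were higher, against 3.71%. The share of genes past the unadjusted level is thus close to that of the array as a whole.

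The differences were small, about as small as over all tested probe sets, and many of the intervals around them were narrow. In 29 of the 38 genes the log2 difference was under 0.25 in size. The 95% interval lay inside -1 to 1, that is within a doubling in either direction, for 34 genes, and within 1.5-fold in either direction for 20. The median size of the log2 difference was 0.158, against 0.150 over all tested probe sets. The median standard error was 0.19, against 0.20 over all tested probe sets. Some dogs shared identical values. PIK3R4 was 7.31202 in ad libitum dog 6 and control dog 4, and ATG9A was 7.50675 in ad libitum dog 2 and control dog 1. A narrow interval may therefore not mean a precise reading, which was not tested.

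**Figure D1:**
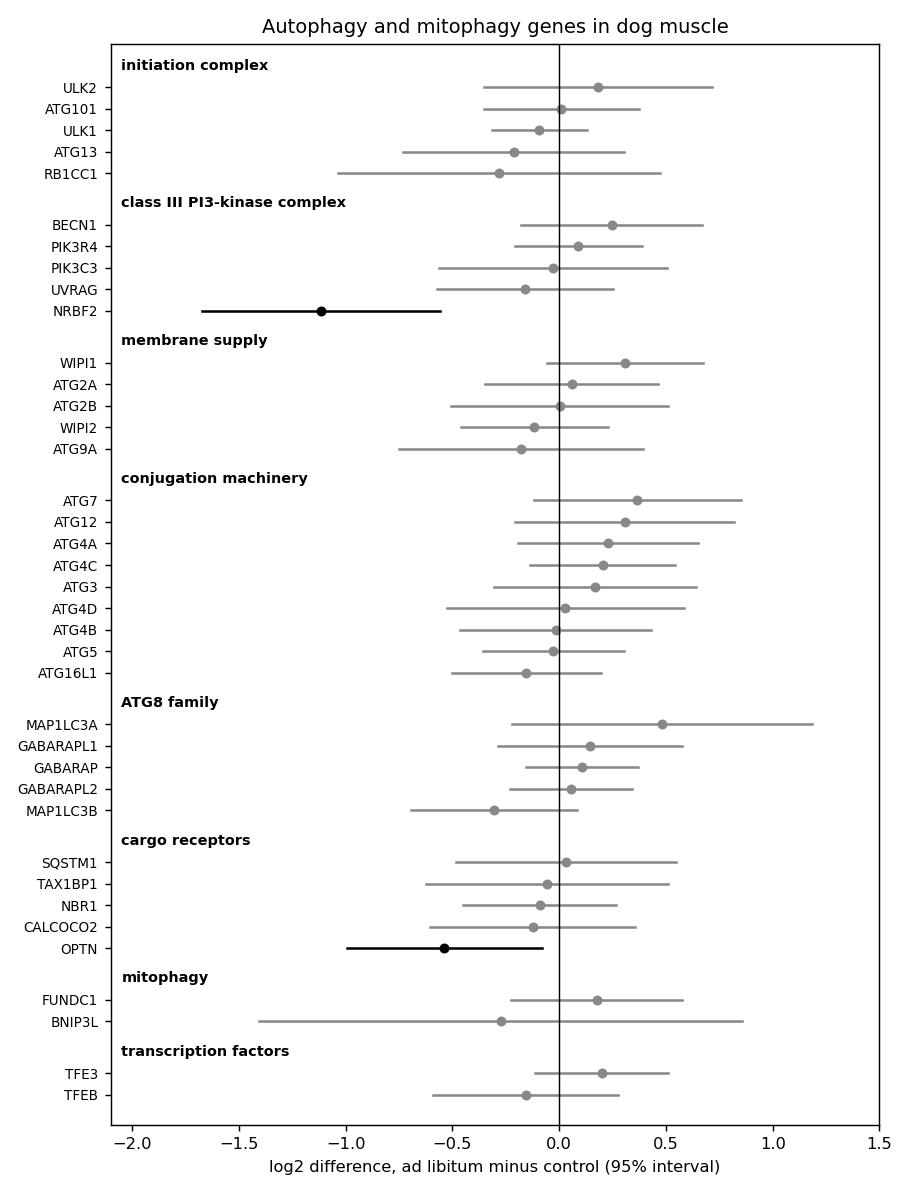
Each row is a gene, grouped by role, and the horizontal axis is the log2 difference of ad libitum minus control with its 95% interval from limma (5 ad libitum and 4 control dogs); black rows had an unadjusted p under 0.05. NRBF2 at -1.12 and OPTN at -0.54 are the genes whose intervals lie wholly below 0.

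The initiation complex, which starts autophagy, had 2 tested genes with higher and 3 with lower means, and its median log2 difference was -0.093. ULK1, a kinase that receives nutrient signals, had log2 values of 5.63, 5.62, 5.43, 5.63 and 5.61 in ad libitum dogs 2, 5, 6, 7 and 8, against 5.64, 5.82, 5.63 and 5.62 in control dogs 1, 3, 4 and 9. The groups overlapped and differed by -0.093 (SE 0.098, 95% interval -0.31 to 0.13). The second probe set of ULK1 differed in the other direction, by 0.16 (SE 0.26, 95% interval -0.42 to 0.74). All values in the sentences that follow run through the dogs in the same order. The related kinase ULK2 had 5.68, 5.03, 5.29, 5.59 and 6.06 in ad libitum dogs, against 5.37, 4.82, 5.55 and 5.65 in control dogs. Its log2 difference was 0.18 (SE 0.24), inside the spread of either group. RB1CC1, the scaffold also called FIP200, had 7.45, 8.10, 8.36, 9.14 and 8.61 in ad libitum dogs, against 8.80, 8.09, 8.43 and 9.14 in control dogs. Ad libitum dog 2 was the lowest and ad libitum dog 7 was level with the highest control dog, so the log2 difference of -0.28 (SE 0.34) lay within the spread. With a dog left out the difference of RB1CC1 ran from -0.48, without ad libitum dog 7, to -0.061, without ad libitum dog 2, and with the adipocyte covariate it was -0.0043. All 5 probe sets of RB1CC1 had lower means in ad libitum dogs, with log2 differences of -0.68 to -0.28 and no unadjusted p under 0.05. The scaffold proteins ATG13 and ATG101, which hold the complex together, differed by -0.21 and 0.010.

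The class III PI3-kinase complex, which puts a lipid mark on the forming membrane, held the gene with the lowest p of the machinery. NRBF2, which binds the ATG14-containing form of the complex, had log2 values of 7.16, 6.98, 7.97, 7.82 and 7.95 in ad libitum dogs, against 8.63, 8.94, 8.32 and 8.88 in control dogs. All 5 ad libitum dogs lay below all 4 control dogs, and dogs 2 and 5 were the lowest. Ad libitum dogs averaged 7.58 ± 0.472 (SD, n = 5) and control dogs 8.69 ± 0.284 (SD, n = 4), which puts ad libitum dogs at 0.462 times the control level. The log2 difference was -1.12 (SE 0.25, 95% interval -1.67 to -0.56), with an unadjusted p of 0.00138 and an adjusted p of 0.796 in limma. It ranked 11 of the 18394 probe sets by p. The two-sided exact permutation p was 0.00794, the smallest that the 126 arrangements of these dogs can give. Of all tested probe sets, 0.696% had every ad libitum dog below every control dog.

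NRBF2 had 1 probe set, so no other measurement of the transcript was at hand. With a dog left out the log2 difference ran from -1.24 to -0.97, and after adding the adipocyte marker mean to the fit it was -1.01 (unadjusted p = 0.0148, limma). The 3' minus 5' log2 value of the GAPDH control probe sets, which is larger in more degraded RNA, was 2.14 to 2.29 in ad libitum and 1.96 to 2.22 in control dogs, and its part in the result was not tested.

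For the other tested subunits of the complex the groups overlapped. BECN1, the scaffold of the complex, had 9.19, 9.03, 9.43, 9.35 and 9.24 in ad libitum dogs, against 8.64, 8.65, 9.32 and 9.39 in control dogs. All ad libitum dogs were above the control mean, since control dogs 1 and 3 were low, and control dogs 4 and 9 lay within the ad libitum range. The log2 difference was 0.25 (SE 0.19, 95% interval -0.18 to 0.67). The lipid kinase PIK3C3, also called VPS34, differed by -0.029 (95% interval -0.56 to 0.50) and its regulatory subunit PIK3R4 by 0.090 (95% interval -0.21 to 0.39). UVRAG, which takes the place of ATG14 in the endosomal form of the complex, differed by -0.16. ATG14 itself and AMBRA1, a BECN1-binding protein, did not pass the filter on any array. ATG14 averaged 2.01 in ad libitum and 2.02 in control dogs, at percentile 6.87 of all probe set means, so it was not measured above background. AMBRA1 averaged 3.70 in ad libitum and 3.74 in control dogs.

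**Figure D2:**
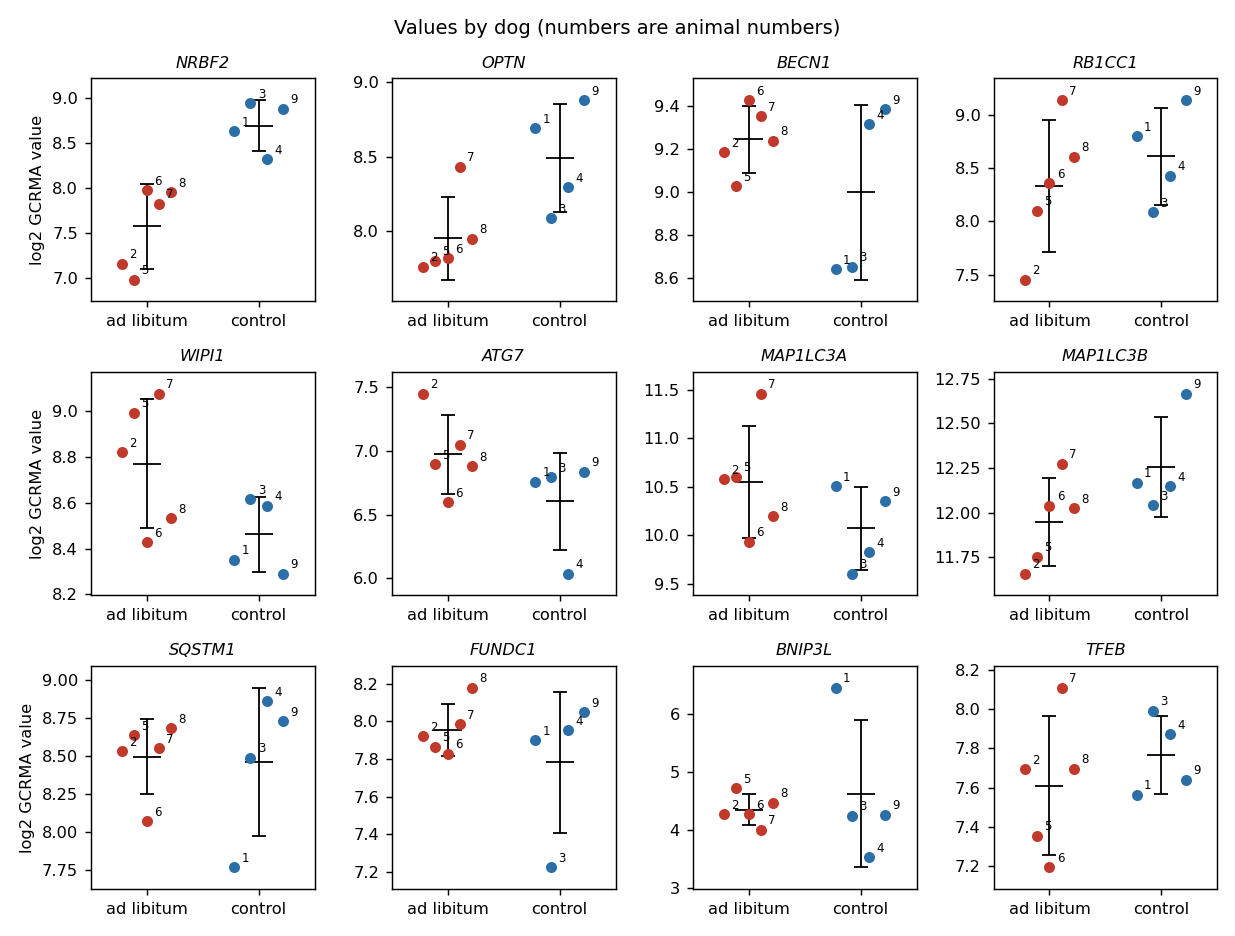
Log2 GCRMA values of 12 genes by dog, with ad libitum dogs in red on the left and control dogs in blue on the right of each panel, numbered by animal; black bars are the mean and SD, and each panel has its own vertical scale that does not start at 0. NRBF2 is the panel without overlap, with ad libitum dogs at 6.98 to 7.97 and control dogs at 8.32 to 8.94.

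Among the proteins that supply membrane to the growing autophagosome, 3 of 5 had higher means and the median log2 difference was 0.0016. WIPI1, which binds the lipid mark, had 8.82, 8.99, 8.43, 9.08 and 8.53 in ad libitum dogs, against 8.35, 8.62, 8.59 and 8.29 in control dogs. Dogs 2, 5 and 7 were above all control dogs and dogs 6 and 8 lay among them. Its log2 difference was 0.31 (SE 0.16), with an unadjusted limma p of 0.0883, and its other probe set had 0.077. Without ad libitum dog 6 the difference of WIPI1 was 0.40 (unadjusted p = 0.0337, limma), and with the adipocyte covariate it was 0.49 (unadjusted p = 0.0357, limma). These were the only 2 of 19 alternative settings in which WIPI1 had an unadjusted limma p under 0.05. The related WIPI2 differed by -0.12. ATG9A, the lipid scramblase carried on vesicles, had 7.51, 7.18, 7.16, 8.32 and 7.25 in ad libitum dogs, against 7.51, 7.98, 7.80 and 7.37 in control dogs. Ad libitum dog 7 was the highest of all dogs while dogs 5, 6 and 8 were the lowest, and the log2 difference was -0.18 (SE 0.25). Without ad libitum dog 7 the difference of ATG9A was -0.39 (unadjusted p = 0.0429, limma). That was the only 1 of 19 alternative settings in which ATG9A had an unadjusted limma p under 0.05. With the adipocyte covariate the sign of the ATG9A difference was reversed, at 0.25. The lipid transfer proteins ATG2A and ATG2B differed by 0.059 and 0.0016, but a further probe set of ATG2B had -0.53 (unadjusted p = 0.0612, limma).

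The conjugation machinery attaches ATG8-type proteins to the membrane, and its median log2 difference was 0.17, with 6 of 9 tested genes higher in ad libitum dogs and 0 at an unadjusted p under 0.05. ATG7, the activating enzyme of both conjugation reactions, had 7.45, 6.90, 6.60, 7.05 and 6.88 in ad libitum dogs, against 6.76, 6.79, 6.04 and 6.84 in control dogs. The log2 difference of 0.37 (SE 0.22, 95% interval -0.12 to 0.85) rested in part on control dog 4, which was the lowest, and without that dog it was 0.18. Further probe sets of ATG7 had 0.076 and 0.093. ATG12, the ubiquitin-like protein joined to ATG5, differed by 0.31 (SE 0.23), with 0.27 and 0.29 for its other probe sets. Control dog 3 was the lowest of all dogs for ATG12, at 8.38, and without that dog the difference was 0.074. With the adipocyte covariate it was -0.015. ATG5 differed by -0.028 (95% interval -0.36 to 0.30). ATG16L1, which brings the ATG12-ATG5 conjugate to the membrane, had 5.12, 5.07, 5.29, 4.59 and 5.11 in ad libitum dogs, against 5.10, 5.43, 5.12 and 5.12 in control dogs. Ad libitum dog 7 was low and control dog 3 high, and the log2 difference was -0.15 (SE 0.16). The E2-like enzyme ATG3 differed by 0.17. The proteases ATG4A, ATG4B, ATG4C and ATG4D, which process ATG8-type proteins, differed by 0.23, -0.016, 0.20 and 0.028. The 4 probe sets of ATG4A ran from 0.16 to 0.33, while those of ATG4C ran from -0.23 to 0.20. ATG10, the E2-like enzyme for ATG12, did not pass the filter, at 2.78 in ad libitum and 2.80 in control dogs.

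The ATG8 family, whose members coat the autophagosome, had 4 of 5 genes with higher means, a median log2 difference of 0.11 and 0 at an unadjusted p under 0.05. The LC3 genes had differences of opposite sign, and a test of one against the other was not made. MAP1LC3A had 10.58, 10.60, 9.93, 11.46 and 10.20 in ad libitum dogs, against 10.50, 9.60, 9.83 and 10.35 in control dogs. Ad libitum dog 7 stood above all others, the groups overlapped, and the log2 difference was 0.48 (SE 0.31, 95% interval -0.22 to 1.18). Without ad libitum dog 7 it was 0.26, and the 3 further probe sets of MAP1LC3A had 0.074 to 0.19. MAP1LC3B, the usual marker of autophagosomes at the protein level, had 11.66, 11.75, 12.04, 12.27 and 12.02 in ad libitum dogs, against 12.17, 12.04, 12.15 and 12.67 in control dogs. Ad libitum dogs 2, 5, 6 and 8 lay below all control dogs, and control dog 9 was the highest. Dogs 6 and 8, at 12.0375 and 12.0234, were only just below the lowest control dog, at 12.0398. The log2 difference was -0.31 (SE 0.17, 95% interval -0.70 to 0.084) with an unadjusted limma p of 0.111, and it was -0.17 without control dog 9. All 3 probe sets of MAP1LC3B had lower means in ad libitum dogs, at -0.31 to -0.16. GABARAP, GABARAPL1 and GABARAPL2, the other branch of the family, differed by 0.11, 0.14 and 0.055. The 95% interval of GABARAP, -0.15 to 0.37, and that of GABARAPL2, -0.23 to 0.34, were among the narrowest.

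Of the cargo receptors, which link ubiquitinated cargo to ATG8-type proteins, 4 of 5 had lower means in ad libitum dogs. OPTN alone, 1 of 5, had an unadjusted limma p under 0.05. Over all 18394 tested probe sets 9494 were lower and 5.91% had such a p, and 5 genes are too few to compare with these shares. The median log2 difference of the cargo receptors was -0.092. OPTN, optineurin, which binds ubiquitin on damaged mitochondria and other cargo, had 7.76, 7.80, 7.82, 8.43 and 7.95 in ad libitum dogs, against 8.69, 8.08, 8.30 and 8.88 in control dogs. Ad libitum dog 7 lay within the control range and the other 4 ad libitum dogs lay below all control dogs. Ad libitum dogs averaged 7.95 ± 0.279 (SD, n = 5) and control dogs 8.49 ± 0.363 (SD, n = 4), or 0.689 times the control level. The log2 difference was -0.54 (SE 0.20, 95% interval -0.99 to -0.082), with an unadjusted p of 0.0256 and an adjusted p of 0.796 in limma, and an exact permutation p of 0.0397.

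OPTN was read by 3 probe sets, and all had an unadjusted p under 0.05. The probe set second in level had 7.54, 7.88, 7.34, 7.85 and 7.42 in ad libitum dogs, against 8.27, 7.95, 8.04 and 8.15 in control dogs. There the groups did not overlap, with ad libitum dogs below control dogs, as in 0.696% of all tested probe sets. The log2 difference of that probe set was -0.50 (SE 0.15, unadjusted p = 0.00784, adjusted p = 0.796, limma). The probe set lowest in level had 6.83, 6.64, 7.10, 7.23 and 7.02 in ad libitum dogs, against 8.14, 7.17, 7.76 and 7.40 in control dogs. Its log2 difference was -0.65 (SE 0.21, unadjusted p = 0.0116, limma). Dog 7 lay just above control dog 3 in that probe set. These probe sets read the same RNA of the same dogs and are not replicates. For the probe set with the highest mean, the unadjusted limma p exceeded 0.05 when any of 5 dogs was left out: 0.0540, 0.0536 and 0.0532 without ad libitum dog 2, 5 or 6, and 0.0707 and 0.0806 without control dog 1 or 9. The difference itself ran from -0.67 to -0.41. With the adipocyte covariate it was -0.49 (unadjusted p = 0.109, limma).

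SQSTM1, the receptor p62, had 8.53, 8.64, 8.07, 8.55 and 8.68 in ad libitum dogs, against 7.77, 8.49, 8.86 and 8.73 in control dogs. Control dog 1 was the lowest of all and the log2 difference was 0.033 (SE 0.23, 95% interval -0.48 to 0.55). The receptors NBR1, CALCOCO2 and TAX1BP1 differed by -0.092, -0.12 and -0.058. The 5 probe sets of NBR1 stayed within -0.19 to 0.015.

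**Figure D3:**
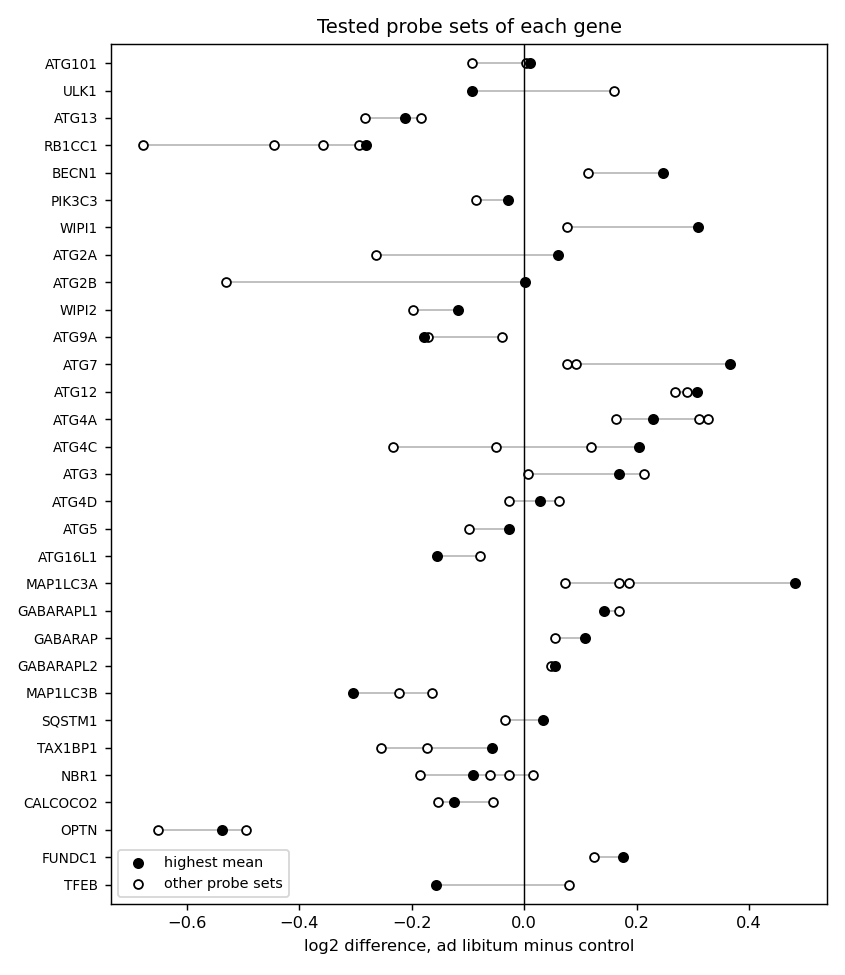
Log2 differences of ad libitum minus control for every tested probe set of the 31 genes that had more than 1; filled points are the probe sets with the highest mean and open points the others. The 3 OPTN points lie between -0.65 and -0.50, and 9 genes have points on both sides of 0.

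Of the mitophagy receptors, BNIP3 was not measured above background, BNIP3L lay near the filter, and FUNDC1 was well measured. BNIP3, a receptor of the outer mitochondrial membrane, had 2.33, 2.32, 2.33, 2.34 and 2.31 in ad libitum dogs, against 2.35, 2.34, 2.33 and 2.32 in control dogs. Its single probe set lay at percentile 19.7 of all probe set means and above log2 4 on 0 arrays, so no difference could be read from it. BNIP3L, the related receptor NIX, had 4.28, 4.72, 4.27, 4.01 and 4.47 in ad libitum dogs, against 6.46, 4.24, 3.54 and 4.26 in control dogs. Control dog 1 stood far above all others, and the log2 difference of -0.27 (SE 0.50, 95% interval -1.41 to 0.86) was 0.34 without that dog. Over all alternative settings the difference of BNIP3L ran from -1.10 to 0.34. BNIP3L lies near the filter, where GCRMA values are imprecise, and the size of this difference is not well determined. FUNDC1, a receptor known from hypoxic cells, had 7.92, 7.87, 7.83, 7.99 and 8.18 in ad libitum dogs, against 7.90, 7.22, 7.95 and 8.05 in control dogs. Control dog 3 was the lowest, the other dogs overlapped, and the log2 difference of 0.18 (SE 0.18) was -0.011 without that dog.

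The transcription factors TFEB and TFE3 switch on genes of lysosomes and autophagy, and neither had an unadjusted p under 0.05. They differed in opposite directions in the probe sets with the highest mean. The direction of TFEB was not stable, since its second probe set had 0.080 and the adipocyte covariate gave 0.14. TFEB had 7.70, 7.35, 7.19, 8.11 and 7.70 in ad libitum dogs, against 7.56, 7.99, 7.87 and 7.64 in control dogs. Ad libitum dogs held both the highest and the lowest values, and the log2 difference was -0.16 (SE 0.19, 95% interval -0.59 to 0.28). TFE3 had 8.11, 8.11, 7.83, 8.22 and 7.85 in ad libitum dogs, against 7.88, 8.08, 7.57 and 7.78 in control dogs. The groups overlapped, with a log2 difference of 0.20 (SE 0.14). These are transcript values, while the activity of both factors is known to be set largely by phosphorylation and entry into the nucleus.

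A further list of genes of the same pathway was read the same way, with 34 genes measured and 27 tested. Of these, 9 had higher and 18 lower means in ad libitum dogs, with a median log2 difference of -0.082, and 1 (3.70%) had an unadjusted p under 0.05, a smaller share than the 5.91% of all probe sets. That gene was VCP, the ATPase that extracts ubiquitinated proteins and takes part in autophagosome maturation. VCP had 11.49, 11.56, 11.72, 11.73 and 11.68 in ad libitum dogs, against 11.39, 11.33, 11.28 and 11.31 in control dogs. All ad libitum dogs lay above all control dogs, as in 0.739% of all probe sets. The log2 difference was 0.31 (SE 0.097, 95% interval 0.091 to 0.53), with an unadjusted p of 0.0106 and an adjusted p of 0.796 in limma, and a further probe set of VCP had 0.25 (unadjusted p = 0.222, limma).

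Agreement between probe sets of a gene was mixed at these sizes. Of 31 tested genes with more than 1 tested probe set, 22 had all their differences on the same side of 0 and 9 did not. Of all 92 tested probe sets of the machinery 4 (4.35%) had an unadjusted p under 0.05, the 3 of OPTN and that of NRBF2, against 5.91% of all tested probe sets.

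In many of the genes the highest and the lowest values came from the same few dogs. The median deviation of a dog from the mean of all dogs, over the 38 genes, ran from -0.086 in ad libitum dog 6 to 0.17 in ad libitum dog 7, and control dogs lay between -0.031 and 0.023. Ad libitum dog 7 was the highest of all dogs in 10 genes and the lowest in 2. This dog also had the lowest adipocyte, fibroblast and macrophage marker means of the ad libitum group, at 8.82, 8.36 and 5.00. Control dog 3 was the highest in 9 genes and the lowest in 7, the largest number of extremes. It was high for ATG13, ATG4B and UVRAG and low for ATG12, FUNDC1 and ULK2. Ad libitum dog 2 was the highest in 4 and the lowest in 8.

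**Figure D4:**
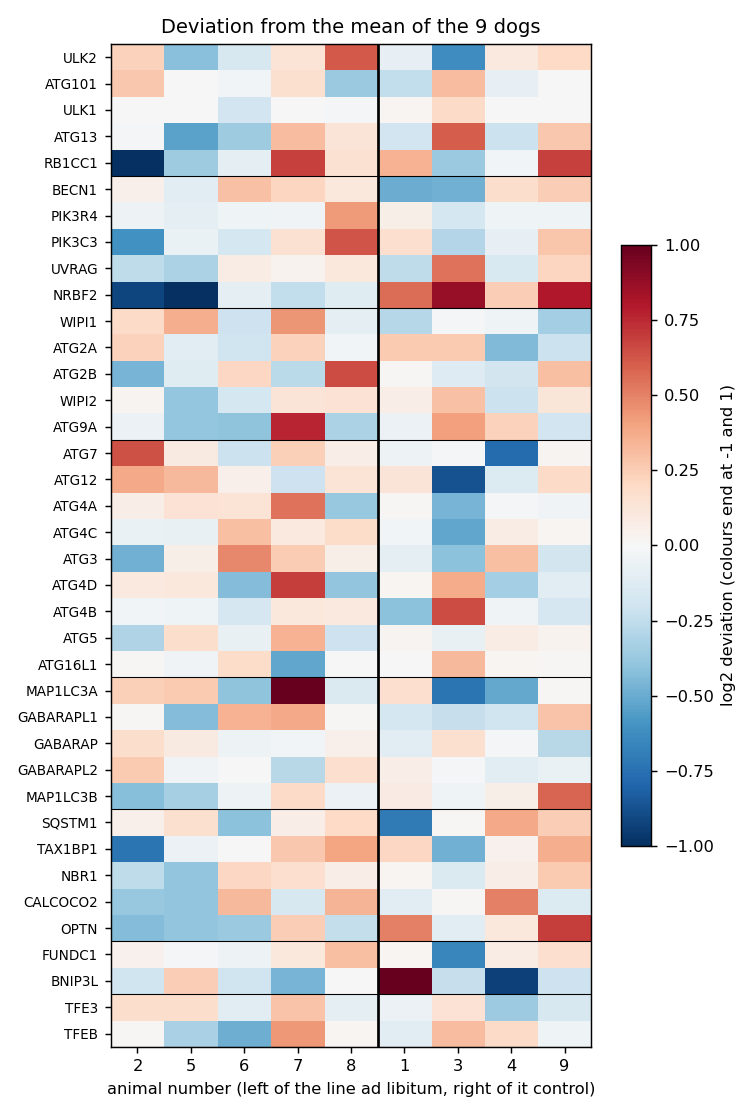
Each row is 1 of the 38 tested genes and each column a dog, ad libitum dogs left of the black line and control dogs right of it; colour is the log2 deviation from the gene's mean over the 9 dogs, and thin lines part the roles in the order initiation, PI3-kinase complex, membrane supply, conjugation, ATG8 family, cargo receptors, mitophagy and transcription factors. NRBF2 is blue in all ad libitum dogs and red in all control dogs, and the strongest colours elsewhere belong to single dogs, such as MAP1LC3A in ad libitum dog 7 and BNIP3L in control dog 1.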

How the data were processed

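The authors processed the arrays with GCRMA (version not stated) according to the submitters' processing notes. The deposited values carry no stated log base and were read as log2 because they span 0.652 to 16.6. GCRMA corrects background by probe sequence and normalizes arrays by quantiles, so a change shared by most transcripts would be hidden, and values near background are uncertain in size. Array pairs correlated at r = 0.976 to 0.994 and none were identical. The number of arrays limits the precision.

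Groups came from the labels, which name no batch. Of 43035 probe sets, 111 controls were left out and 18394 that exceeded log2 4 on 4 or more arrays entered the test with limma 3.58.1, run in R 4.3.3 (linear models with default empirical Bayes moderation, two-sided, 7 residual and 2.32 prior degrees of freedom), with Benjamini-Hochberg adjustment over all of them. Symbols came from the platform annotation of the array, and 41 of the 42 measured genes had their Entrez ID in the RefSeq gene table of UU_Cfam_GSD_1.0, from which only names were taken. No genome belongs to these values, so no positions or sequences are given.

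The genes, lists and rules were chosen with earlier results of these data known. Dog values are given for genes with an unadjusted p under 0.05 or groups without overlap, for the highest and lowest difference in each role, and for ULK1, BECN1, MAP1LC3B, SQSTM1, BNIP3, BNIP3L and TFEB. The limma step was tested on simulated data. Alternatives tried were testing all probe sets, a stricter filter (log2 6), raising values below log2 4 to that level, cyclic loess, median centring, an intensity trend, robust estimation, an adipocyte covariate, other probe sets and leaving out each dog. The permutation tests were added after the data were seen.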

Additional observations from a re-analysis of the deposited data

Results flagged for a closer look

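The values of 43 genes (the 42 measured and VCP) were screened for a dog far from the others of its group, in 86 groups of 4 or 5 dogs, and 11 values stood out. Chance alone gives about 1 in 20 groups. Control dog 3 was far from the other control dogs for ULK1 (highest, 5.82), ATG16L1 (highest, 5.43) and ATG4A (lowest, 8.75). Control dog 9 was the highest for GABARAPL1 (10.4) and ATG10 (2.86), and control dog 4 the lowest for ATG7 (6.04). Ad libitum dog 6 was the lowest of its group for ULK1 (5.43) and SQSTM1 (8.07). Ad libitum dog 7 was the highest for OPTN (8.43) and ATG10 (2.90), and ad libitum dog 8 the highest for PIK3R4 (7.78). The ATG10 values lie in the background range.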

How the results depend on the processing

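No paired analysis was possible because the animal numbers are not shared by the groups. Of the 38 tested genes, 18 kept the sign of their difference under all alternatives that gave a value, NRBF2 and OPTN among them, and 20 did not. NRBF2 had an unadjusted p under 0.05 in 18 of 18 settings (0.000724 to 0.0148), OPTN in 13 of 19 (0.00416 to 0.109). The settings reuse the same dogs and are not independent tests. Several, such as the intensity trend, left the NRBF2 difference at -1.12. As its groups did not overlap, leaving out a dog could not reverse the sign of NRBF2. The 0 probe sets at an adjusted p under 0.05 became 1 with the floor at log2 4, and 0 to 1 with a dog left out. The 1088 at an unadjusted p under 0.05 became 473 with the adipocyte covariate and 695 to 2151 with a dog left out, the extremes being without ad libitum dogs 5 and 7. The 2 genes of the machinery at that level became 1 with the probe set of second highest mean, which NRBF2 lacks, and 1 to 3 with a dog left out, 1 of them without ad libitum dog 2 or 5 or control dog 1 or 9. The 20 higher genes became 13 with the second probe set, where 31 genes could be read, and 16 with median centring. The 1 further pathway gene became 3 with the adipocyte covariate and 1 to 3 with a dog left out.

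Most differences that changed sign were under 0.25 in size in the planned fit, and those of ATG12 and BNIP3L were larger. The cause was not tested. With the adipocyte covariate the log2 difference was 0.064 for PIK3C3, -0.028 for ATG2A, -0.070 for ATG2B, 0.25 for ATG9A, 0.20 for ATG4B, 0.14 for ATG5, -0.015 for ATG12, -0.13 for GABARAPL2, 0.0023 for NBR1, 0.075 for CALCOCO2, 0.081 for TAX1BP1 and 0.14 for TFEB. With the second probe set it was 0.16 for ULK1, -0.093 for ATG101, -0.26 for ATG2A, -0.53 for ATG2B, -0.23 for ATG4C, -0.027 for ATG4D, -0.034 for SQSTM1 and 0.080 for TFEB. With the mean over all probe sets it was 0.034 for ULK1, -0.027 for ATG101, -0.066 for ATG2A, -0.16 for ATG2B and -0.00051 for SQSTM1. Median centring gave -0.032 for ATG101, -0.041 for ATG2B, -0.014 for ATG4D and -0.0096 for SQSTM1, and cyclic loess -0.0033 for ATG101 and -0.0053 for ATG2B. With a dog left out the difference ran from -0.071 to 0.12 for ATG101, -0.19 to 0.12 for PIK3C3, -0.0052 to 0.13 for PIK3R4, -0.077 to 0.16 for ATG2A, -0.16 to 0.12 for ATG2B, -0.16 to 0.20 for ATG4B, -0.14 to 0.16 for ATG4D, -0.12 to 0.045 for ATG5, -0.0030 to 0.13 for GABARAPL2, -0.20 to 0.16 for SQSTM1, -0.22 to 0.022 for CALCOCO2, -0.23 to 0.12 for TAX1BP1, -0.64 to 0.34 for BNIP3L and -0.011 to 0.26 for FUNDC1.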
